A study of Mus musculus with 6 samples.

Results

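9 microRNAs (miRNAs) best known from liver, striated muscle or endocrine tissue were followed through libraries made from brain vesicles: miR-122-5p, miR-122-3p, miR-192-5p, miR-194-5p, miR-375-3p, miR-1a-3p, miR-133a-3p, miR-133b-3p and miR-206-3p. The rule that chose them lists names and uses no measured value, though it was written with earlier results of these data known. miR-133a-3p and miR-133b-3p share a merged entry, so the 9 names fill 8 of the 1926 rows of the deposited table. 7 of the 8 rows were above 0, and 5 had a mean of at least 10 RPM (reads per 1000000 miRNA reads), the level above which miRNAs were tested. The 6 libraries hold small RNA from extracellular vesicles, the membrane-bound particles that cells release, isolated from mouse brain tissue. 3 libraries come from mice that had gone through status epilepticus, a prolonged seizure (SE), and 3 from matched controls (CON). The series title gives 24 hr. The strain, age and sex of the mice and the agent that evoked the seizures are not given in the sources used here. Nothing says that the replicates are separate animals, so every p-value here reflects the spread among these 6 libraries, which may be technical.

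A miRNA is cut from a hairpin RNA and guides a silencing complex to messenger RNAs, mainly through its seed, bases 2 to 8. Some miRNAs are made almost wholly in one cell type. miR-122 makes up much of the miRNA of hepatocytes, and the miR-1 and miR-133 families are transcribed together in heart and skeletal muscle, where they act on muscle growth and excitability. For that reason such miRNAs serve as tracers of RNA from their home tissue in blood and in other samples. In a bulk preparation, fewer vesicles of a source and less of a miRNA per vesicle cannot be told apart.

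Sequences are shown for the 4 of the 9 names that matched a mature sequence in the RefSeq table (build GRCm38.p6), with the seed in capitals, because they show which members can share targets or reads. The deposited table names miRNAs and gives no coordinates.
miR-206-3p: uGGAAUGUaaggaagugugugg
miR-133b-3p: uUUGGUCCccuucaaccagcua
miR-192-5p: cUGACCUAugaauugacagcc
miR-194-5p: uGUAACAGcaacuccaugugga
miR-206-3p lies at chr1:20679055-20679076 and miR-133b-3p at chr1:20682834-20682855, both on the plus strand, and 3686 bases separate their hairpins. miR-192-5p lies at chr19:6264857-6264877 on the plus strand. miR-194-5p is encoded in 2 places, at chr19:6264658-6264679 and chr1:185313325-185313346, both on the plus strand, so its reads do not say which copy they came from. The copy on chromosome 19 has its hairpin 115 bases from that of miR-192. The 4 seeds all differ. The RefSeq names not matched were miR-122-5p, miR-122-3p, miR-375-3p, miR-1a-3p and miR-133a-3p.

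The libraries held 5482407 to 10845434 miRNA reads, and the lowest value listed in each stood for 2 reads. In the deposited RPM table the names go with the SE columns only, and each CON value used here was first matched to its name by way of the base mean that the authors' deposited table gives. For each of the 7 detected members exactly 1 CON row matched, with a relative difference of at most 2.49e-09. The label of brain was met by neuronal miRNAs: 10 of 10 fixed neuronal miRNAs were detected, with a summed level of 24813 to 29978 RPM in SE and 27570 to 32313 RPM in CON libraries, and miR-124-3p, a neuron-specific regulator, at 1689 to 3082 RPM. No value in these files checks the labels SE and CON themselves, and each direction below follows them.

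**Figure D1:**
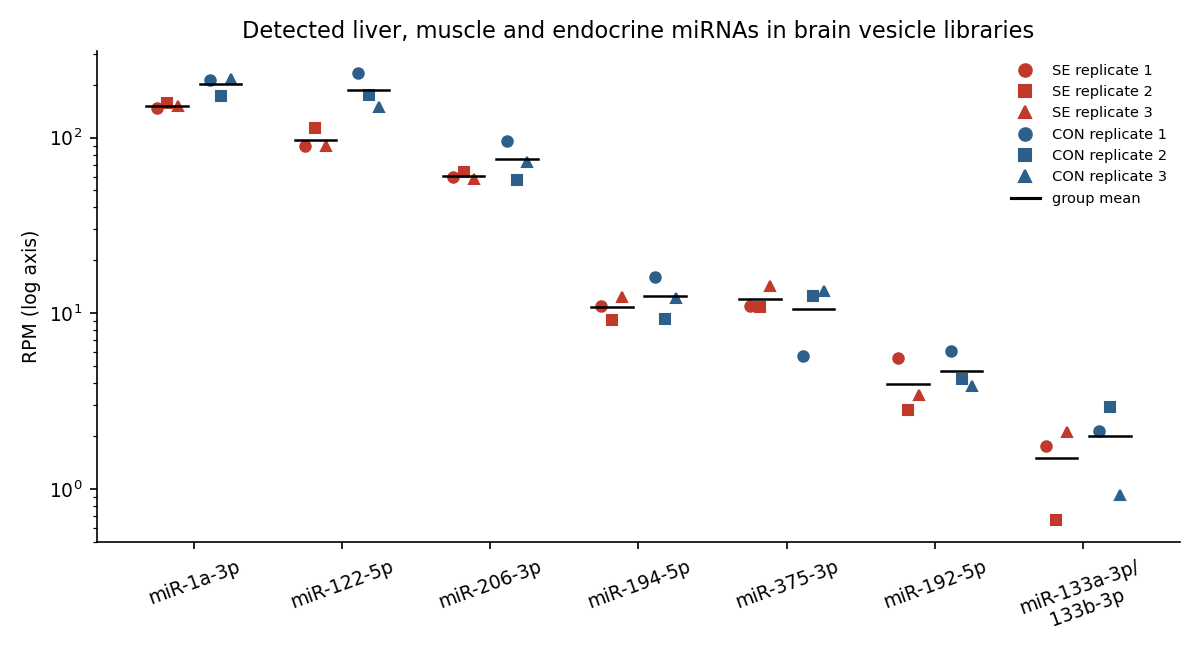
RPM of the 7 detected miRNAs on a log axis, ordered by their mean, in 3 SE (red) and 3 CON (blue) libraries; marker shapes give the replicate and bars the group means. miR-122-5p and miR-1a-3p have SE values that all lie below their CON values, and the other 5 overlap. Of all 290 tested miRNAs, 13.4% have SE values that all lie below their CON values.

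The liver miRNA miR-122-5p was measured at 89.5, 114 and 89.4 RPM in SE replicates 1, 2 and 3, and at 233, 175 and 150 RPM in CON replicates 1, 2 and 3. Every SE value lay below every CON value, and the CON libraries were spread more widely. The SE mean was 97.5 RPM ± 13.99 (SD, n = 3). The CON mean was 186 RPM ± 42.5 (SD, n = 3), which is 1.91-fold higher. These values rest on 598 to 1304 reads a library, and at the lowest of these, in SE replicate 3, the Wilson 95% interval ran from 82.5 to 96.8 RPM, narrower than the spread between libraries. limma-trend, fitted on log2(RPM + 1) over all 290 miRNAs above the filter, put the log2 ratio of SE to CON at -0.91 with a standard error of 0.22 and a 95% interval from -1.38 to -0.45. Its adjusted p of 0.0504 (Benjamini-Hochberg, two-sided) did not pass 0.05, and its unadjusted p was the 4th smallest of the 290. In the authors' deposited table miR-122-5p was called, with a log2 fold change of 0.82, a standard error of 0.23 and an adjusted p of 0.04004. That table does not name its direction. Among the 69 tested miRNAs with a value above 0 in every library and a size over 0.3 in the authors' deposited table, 69 had the sign opposite to SE over CON, so its positive values are read as higher in CON.

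The call on miR-122-5p changed with the processing. limma passed it with a pseudocount of 5 RPM (adjusted p of 0.0426), with robust variance estimation (0.0434) and without CON replicate 3 (0.00874, log2 fold change -1.05). Without CON replicate 1, the library with its highest value, the adjusted p was 0.287 and the log2 fold change -0.74. Over the 16 alternatives that kept the CON rows under their names as put back, the log2 fold change ran from -1.05 to -0.74 and the adjusted p by limma from 0.00874 to 0.369. Had the CON columns been read in their deposited row order, the CON mean of miR-122-5p would have been 101 RPM and the log2 fold change -0.05.

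**Figure D2:**
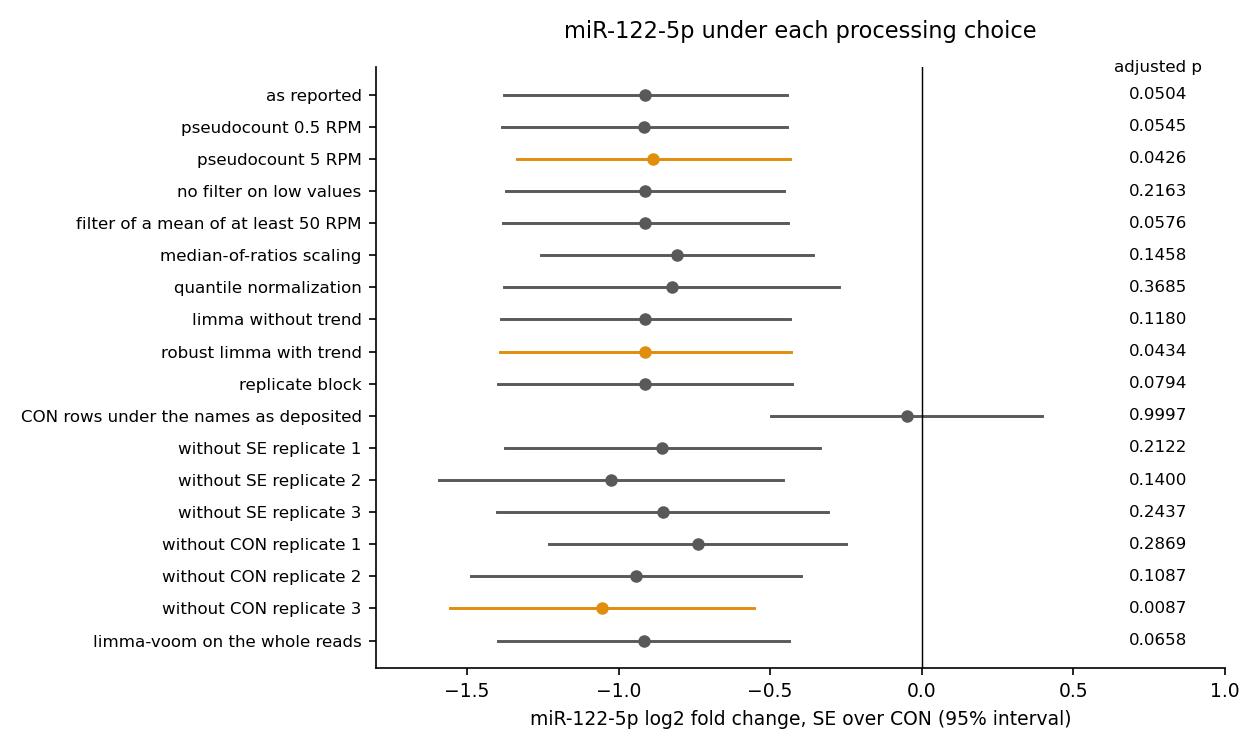
Log2 fold change of miR-122-5p, SE over CON, with its 95% interval under the reported and 17 other settings of limma; the adjusted p stands at the right and orange marks values under 0.05. 3 of the 17 other settings pass, and among these settings the value is near 0 only where CON rows keep their deposited order.

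The other arm of the miR-122 hairpin, miR-122-3p, was listed at 0 in all 6 libraries. Over the pooled 41133382 reads a count of 0 allows up to 0.0729 RPM, the level of 3 reads. With 5496 reads of miR-122-5p over the 6 libraries, the 5p arm was at least 1832-fold higher than the 3p arm, against that floor of 3 reads pooled over all libraries. Floors and intervals cover counting error only. A listed 0 may hide a single read in each library, so the fold is a lower bound only if each listed 0 is a true 0.

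miR-192-5p and miR-194-5p, which come from shared transcripts in liver, gut and kidney epithelium, were present at much lower levels than miR-122-5p. miR-194-5p stood at 10.97, 9.14 and 12.4 RPM in SE and 16.1, 9.30 and 12.1 RPM in CON libraries. The groups overlapped, and limma gave a log2 fold change of -0.17 with a standard error of 0.28, an interval from -0.77 to 0.43 and an adjusted p of 0.893. Without CON replicate 1 the value was 0.02. miR-192-5p stood at 5.53, 2.83 and 3.44 RPM in SE and 6.08, 4.20 and 3.84 RPM in CON libraries, under the filter and therefore not tested. Its groups overlapped too, at 17 to 60 reads a library.

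Within a library, miR-194-5p exceeded miR-192-5p by 1.98- to 3.61-fold, and miR-122-5p exceeded miR-192-5p by 16.2- to 41.8-fold. In the 3 CON libraries the ratio of miR-122-5p to miR-192-5p was 38.4, 41.8 and 39.1, while in SE it was 16.2, 40.2 and 26.0. The SE ratios were spread more widely than the CON ratios, and SE replicate 2 lay within the CON range. miR-192-5p had 17 to 60 reads a library, so counting error weighs on each ratio. The difference in spread was not tested.

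The opposite arms of these hairpins were nearly absent. miR-192-3p and miR-194-1-3p were at 0 in every library, and miR-194-2-3p had 8 reads, all of them in SE replicate 3. The miR-194 3p arms differ in sequence, which lets reads be given to a copy, unlike those of miR-194-5p. They are shown for that reason, seed in capitals.
miR-194-1-3p: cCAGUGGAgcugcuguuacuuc
miR-194-2-3p: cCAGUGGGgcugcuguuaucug
They share 18 of 22 bases and differ within the seed. miR-194-1-3p lies at chr1:185313360-185313381 and miR-194-2-3p at chr19:6264694-6264715, both on the plus strand. The 5p arm of miR-194 had 477 reads, 59.6-fold more than the 3p arms (exact 95% interval 30.02 to 139). That interval pools the reads of the 6 libraries, though all 8 reads of the 3p arms came from SE replicate 3. It covers counting error only and takes each listed 0 as a true 0.

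miR-215-5p, which shares the seed of miR-192-5p, is printed to show why they count as relatives.
miR-215-5p: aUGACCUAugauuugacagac
18 of 21 bases match those of miR-192-5p, and it lies at chr1:185313610-185313630 on the plus strand. It had 9 reads in all, from 2 CON libraries, against 182 reads of miR-192-5p.

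Among the muscle miRNAs, miR-1a-3p, which acts in heart and skeletal muscle differentiation, had the highest mean of the members over the 6 libraries, though miR-122-5p stood above it in CON replicates 1 and 2. It stood at 147, 158 and 152 RPM in SE and at 213, 174 and 217 RPM in CON libraries. The SE values were tightly grouped and all lay below the lowest CON value. The SE mean was 152 RPM ± 5.53 (SD, n = 3). The CON mean was 201 RPM ± 23.99 (SD, n = 3), which is 1.32-fold higher. limma gave a log2 fold change of -0.40 with a standard error of 0.20, an interval from -0.82 to 0.02 and an adjusted p of 0.607, so the difference did not pass. In the authors' deposited table its log2 fold change was 0.29 with a standard error of 0.15 and an adjusted p of 0.965.

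miR-206-3p, a skeletal muscle miRNA of the same seed family as miR-1, was detected at 59.5, 63.99 and 57.99 RPM in SE and at 95.6, 57.6 and 72.6 RPM in CON libraries. The groups overlapped, with CON replicate 2 below all SE libraries and CON replicate 1 above all. The log2 fold change by limma was -0.28 with a standard error of 0.23, an interval from -0.76 to 0.19 and an adjusted p of 0.824. Without CON replicate 1 it was -0.10.

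The merged entry of miR-133a-3p and miR-133b-3p, partners of miR-1 and miR-206 in their transcripts, was close to the detection limit. It had 19, 4 and 14 reads in SE and 12, 16 and 6 reads in CON replicates 1, 2 and 3, which is 1.75, 0.665 and 2.09 RPM and 2.15, 2.92 and 0.922 RPM. The Wilson 95% interval of SE replicate 2 ran from 0.259 to 1.71 RPM and that of CON replicate 2 from 1.80 to 4.74 RPM. The groups overlapped, and the entry was under the filter and not tested.

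The muscle miRNAs therefore took very unequal shares of the reads. Read shares of different miRNAs or arms were not calibrated to amounts, so ratios between them are ratios of reads. Within a library miR-1a-3p exceeded miR-206-3p by 2.23- to 3.01-fold and the miR-133 entry by 59.5- to 237-fold. miR-206-3p exceeded the miR-133 entry by 19.8- to 96.3-fold, although miR-206 and miR-133b are encoded next to each other as shown above. The ratio of miR-1a-3p to miR-206-3p was 2.46, 2.46 and 2.62 in SE and 2.23, 3.01 and 2.99 in CON libraries, with the SE values inside the CON range. The 5p arms miR-1a-1-5p, miR-1a-2-5p, miR-133a-5p, miR-133b-5p and miR-206-5p were at 0 in all 6 libraries. From pooled reads and a floor of 3 reads, the 3p arm was at least 2370-fold higher for miR-1a and at least 914-fold higher for miR-206. These bounds also take each listed 0 as a true 0.

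miR-375-3p, a miRNA of pancreatic islets, pituitary and some epithelia, stood at 10.97, 10.8 and 14.3 RPM in SE and at 5.72, 12.6 and 13.4 RPM in CON libraries. CON replicate 1 was low, with 32 reads, and the other 5 libraries lay between 10.8 and 14.3 RPM. limma gave a log2 fold change of 0.24 with a standard error of 0.32, an interval from -0.43 to 0.91 and an adjusted p of 0.871, and -0.11 without CON replicate 1. The other arm, miR-375-5p, was at 0 in all libraries.

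Over the 6 libraries the order by mean level was miR-1a-3p, miR-122-5p, miR-206-3p, miR-194-5p, miR-375-3p, miR-192-5p and the miR-133 entry, at ranks 95, 104, 147, 278, 282, 381 and 480 of the 775 miRNAs detected. The clear step lay between miR-206-3p, at 57.6 RPM or more, and miR-194-5p, at 16.1 RPM or less. All other neighbours in the order had overlapping ranges. miR-1a-3p exceeded miR-122-5p in 3 of 3 SE libraries and in 1 of 3 CON libraries, while miR-122-5p exceeded miR-206-3p in 6 of 6. miR-194-5p exceeded miR-375-3p in only 1 of 6, CON replicate 1, so the order of these neighbours rests on that library. miR-375-3p exceeded miR-192-5p in 5 of 6, and miR-192-5p exceeded the miR-133 entry in 6 of 6. Summed, the 8 rows took 0.0325% to 0.0359% of the reads in SE and 0.0436% to 0.0572% in CON libraries. For scale, miR-124-3p exceeded miR-122-5p by 7.24- to 34.4-fold and miR-1a-3p by 7.91- to 21.04-fold within a library.

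The liver rows summed to 106, 126 and 105 RPM in SE and 255, 189 and 166 RPM in CON libraries, and the muscle rows to 208, 222 and 212 RPM in SE and 311, 234 and 290 RPM in CON libraries. Both sums lay lower in every SE library than in every CON library, carried by miR-122-5p and miR-1a-3p. The source of miR-122-5p and miR-1a-3p in these vesicles was not tested. Whether these miRNAs differed by the same factor was asked with the ratio of miR-122-5p to miR-1a-3p, which does not depend on library scaling. It was 0.611, 0.721 and 0.588 in SE and 1.09, 1.01 and 0.693 in CON libraries, with SE replicate 2 above CON replicate 3. On log2(RPM + 1) the ratio was lower in SE by a difference of -0.52, and an exact permutation test (two-sided) gave p = 0.2, where the smallest p that 10 splits allow is 0.1.

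**Figure D3:**
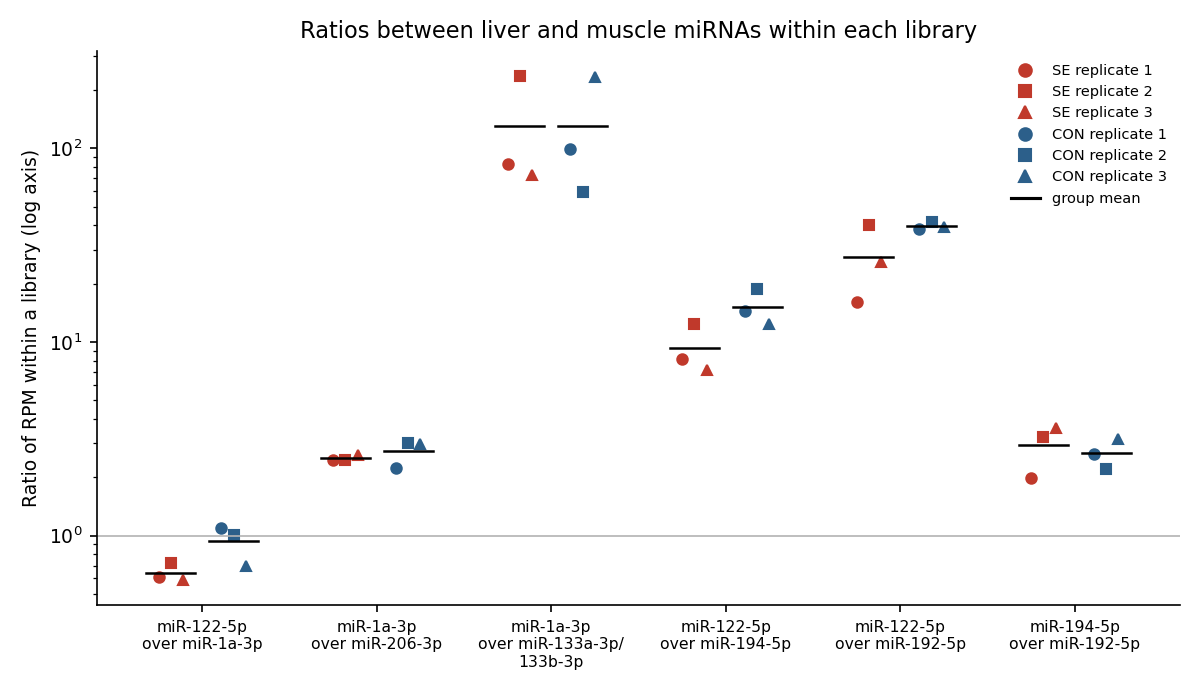
Ratio of RPM between 2 members within each library on a log axis, for 3 SE (red) and 3 CON (blue) libraries; bars are group means and the grey line marks equal RPM. miR-122-5p over miR-1a-3p is below 1 in all SE libraries, and miR-1a-3p over the miR-133 entry is at least 59.5 in every library.

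Of the 5 tested members 0 passed by limma, where 1.03% of the 290 tested miRNAs did, 3 in number. 1 member, miR-122-5p, had an unadjusted p under 0.05, against 9.31% of all tested. The authors' deposited table calls 1.04% of 772 miRNAs, miR-122-5p among them and none of the other 6 detected members. 2 of the 5, miR-122-5p and miR-1a-3p, had all SE values below all CON values, where 13.4% of all tested did. 4 of the 5 had a negative log2 fold change, where 59.7% of all did. The median was -0.28 over the 5 and -0.07 over all 290, and with median-of-ratios scaling these were -0.18 and 0.03.

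**Figure D4:**
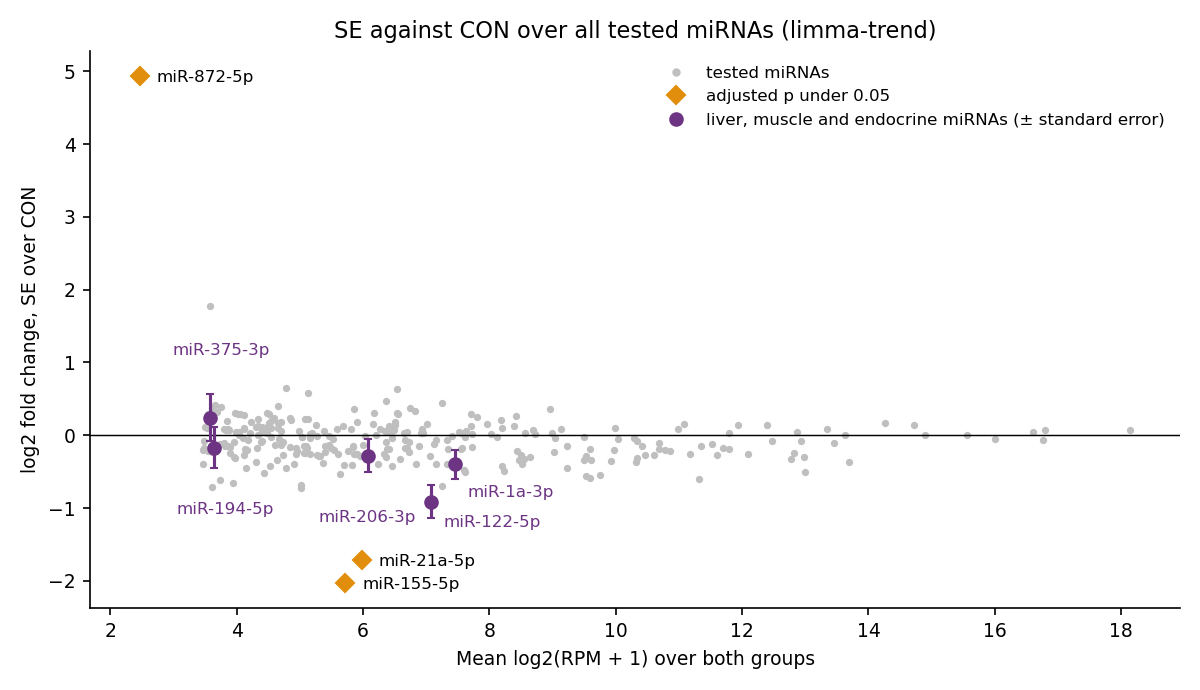
Log2 fold change by limma-trend, SE over CON, against the mean log2(RPM + 1) for 290 tested miRNAs (grey), with the 3 called miRNAs in orange and the 5 tested members in purple with their standard errors. miR-122-5p at -0.91 lies at the lower edge of the miRNAs of its level, and the other 4 lie among the grey points.

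Further miRNAs of the same tissues were taken from fixed lists. Of 9 others of liver and gut, 4 were detected and 0 were tested: miR-148a-3p at 1.79 to 6.64 RPM in all 6 libraries, and miR-194-2-3p, miR-215-5p and miR-802-3p in 1 or 2 libraries each. Of 13 other muscle rows, 2 were detected and 0 were tested. miR-499-5p, which lies within a myosin heavy chain gene, stood at 1.33 to 2.09 RPM in SE and 1.61 to 1.998 RPM in CON libraries, and miR-1b-3p had 9 reads in CON replicate 2. The heart miRNAs miR-208a-3p and miR-208b-3p were at 0. Of 12 others of endocrine and epithelial tissue, 10 were detected, 2 were tested and 0 passed by limma. miR-429-3p of the epithelial miR-200 family stood at 9.50, 7.65 and 8.67 RPM in SE and 17.5, 14.4 and 12.5 RPM in CON libraries, without overlap. Its log2 fold change by limma was -0.71 with a standard error of 0.27 and an adjusted p of 0.373. The other tested member of the list, miR-184-3p, overlapped between the groups, with a log2 fold change of 0.10 and an adjusted p of 0.935 by limma. The relatives miR-200a-3p, miR-200b-3p and miR-200c-3p were under the filter, with SE means of 3.24, 3.19 and 2.18 RPM and CON means of 4.38, 3.86 and 3.46 RPM, and their groups overlapped. miR-205-5p, an epithelial miRNA seen in 4 libraries, averaged 0.814 RPM over SE and 0.448 RPM over CON replicates, with overlap. miR-203-3p averaged 7.32 RPM over SE and 8.70 RPM over CON replicates. It and the remaining detected rows, miR-141-3p, miR-216a-5p and miR-217-5p, were under the filter and overlapped between the groups.

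The tested miRNAs whose course over the 6 libraries was most like that of miR-122-5p were miR-344d-3p, miR-212-3p and miR-429-3p. Their root mean square difference from it, on log2(RPM + 1) centred on each miRNA's mean, was 0.16, 0.18 and 0.22, where the median of the 289 others was 0.52. The most alike to miR-1a-3p were miR-140-3p, miR-30e-3p and miR-16-5p at 0.05, 0.06 and 0.07, with a median of 0.30. For miR-206-3p they were miR-674-3p, miR-128-3p and miR-142a-5p at 0.06, 0.08 and 0.09. For miR-194-5p they were miR-369-5p, miR-433-5p and miR-128-3p at 0.10, 0.11 and 0.12. For miR-375-3p the nearest were miR-17-3p, miR-7033-5p and miR-410-5p at 0.26 to 0.27. Likeness was computed in the same libraries as the values above and is a description.

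Of the 8 marker lists, the summed red cell, myeloid and astrocyte markers lay lower in every SE library than in every CON library. So did miR-122-5p and miR-1a-3p and, among single miRNAs, 13.4% of all tested. 4 of 6 red cell rows were detected, with sums of 8893 to 9817 RPM in SE and 10242 to 11483 RPM in CON libraries. That sum was mostly miR-16-5p, which is made in many cell types and was the only 1 of the 3 tested rows whose groups did not overlap. The others, miR-185-5p and the merged miR-486a-5p/486b-5p, had log2 fold changes of 0.08 and -0.06. The defining red cell miRNAs miR-144-3p and miR-144-5p were at 0 in all libraries. miR-451a, the most abundant miRNA of red cells, had 6 reads in CON replicate 3 and 0 in the other 5 libraries. 4 of 4 myeloid rows were detected, with sums of 63.2 to 83.1 RPM in SE and 157 to 171 RPM in CON libraries. That difference was carried by miR-155-5p, which passed by limma, and the groups of miR-142a-3p, miR-142a-5p and miR-223-3p overlapped. The astrocyte list, 4 of 4 detected, summed to 7990 to 8865 RPM in SE and 9227 to 13108 RPM in CON libraries. That separation was carried by miR-29a-3p, and the groups of miR-143-3p, miR-449a-5p and miR-22-3p overlapped. miR-143-3p is also on the smooth muscle list, so the sums of these lists are not independent. The part of blood, myeloid or astrocyte miRNAs in the values of miR-122-5p and miR-1a-3p was not tested. The endothelial, smooth muscle, oligodendrocyte, choroid plexus and neuron sums overlapped between the groups.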

How the data were processed

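The RPM values were deposited by the authors, per the file headers, and each column sums to a fixed total. The library kit was QIAseq miRNA, per the labels' protocols, and the submitters' processing notes name mm9 and DESeq2 with no role. The aligner, counter and annotation are not given in the sources used here. The authors' deposited table of fold changes holds a base mean (signal), log2 fold changes with standard errors, a Wald score and p-values.

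Every RPM value was a whole number of reads within 0.01 reads when a column's lowest value is taken as 2 reads. 3 size factors were fitted for SE and 3 for CON columns. 687 of 687 second-group totals, 6 base means less the scaled SE reads, matched a CON row within 1e-05. With CON size factors exchanged in 5 ways, at most 3 of 312 totals of 150 or more matched.

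limma-trend (limma 3.58.1, R 4.3.3) was run on log2(RPM + 1) for rows whose mean reached 10 RPM, with group as factor and calls at an adjusted p under 0.05. On simulated counts for the 290 miRNAs of SE against CON it found 91.3% of 2-fold changes, and 0.923% of the rest were called. Each of 5 runs raised 30 miRNAs in SE, with a single dispersion of 0.04 for all counts. In the data 3 miRNAs were called, so these shares do not give the chance of calling a 2-fold change here. Python 3.11.15 and scipy 1.17.1 gave the permutation test and intervals. The planned edgeR and DESeq2 fits were not run, because the steps of the RPM values give whole reads only on the reading of 2 reads above. limma-voom on those reads was added after the data were examined. Named miRNAs are the 9 members, the detected members of 3 lists of related miRNAs, 3 most alike miRNAs per tested member, and marker lists. The members and lists were chosen with earlier results of these data known.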

Additional observations from a re-analysis of the deposited data

How the results depend on the processing

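Depth limits the miR-133 entry and miR-192-5p, which had 4 to 60 reads a library. The number of miRNAs called by limma was 3, and 0 of 289 with CON rows in their deposited order, where 2 had an unadjusted p under 0.05. Leaving out a library gave 3 to 6, with 6 without CON replicate 2 and 5 without CON replicate 3. The log2 fold change of miR-122-5p was -0.88 with a pseudocount of 5 RPM and -0.91 with robust limma, where it passed, and -1.05 to -0.74 with a library left out. It passed in 3 of 17 alternatives, with adjusted p from 0.00874 to 0.9997. The ratio of miR-122-5p to miR-1a-3p had a log2 difference of 0.13 with CON rows in that order, and -0.71 to -0.39 with a library left out. miR-194-5p changed sign to 0.10 in that order and 0.016 without CON replicate 1, and miR-375-3p to -0.11 without CON replicate 1. With a library left out they ran from -0.35 to 0.02 and from -0.11 to 0.44. miR-1a-3p and miR-206-3p kept their sign, at -0.50 to -0.18 and -0.46 to -0.10. Their calls, and those of miR-194-5p and miR-375-3p, stayed on the same side in all alternatives run. The cause of these changes was not tested. Whether the replicate numbers pair the libraries is not stated. Deviations of same-numbered libraries from their group means correlated at -0.415, -0.249 and 0.045. With 3 libraries a group, these values cannot decide it. With the replicate number as a block, 3 miRNAs were called, the adjusted p of miR-122-5p was 0.0794, and the ratio had an exact sign-flip permutation p of 0.25, the smallest that 3 pairs allow, with SE lower in 3 of 3. The planned edgeR and DESeq2 fits were not run.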
